A study of Mus musculus with 34 samples.

Results

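The genes of the ATF4 amino acid response were examined in cultures of MOSJ-Dkk-1 cells, a mouse osteosarcoma (OS) line. The 42 genes were taken by symbol from a list that covers the transcription factors and stress regulators around ATF4, the enzymes that make asparagine, serine, glycine, proline and alanine, the transsulfuration enzymes, amino acid transporters and cytoplasmic tRNA synthetases. Of these, 40 had a row among the 16576 genes of the culture table. Atf4 itself and Pycr1, a proline synthesis enzyme, are not analysed here. The line carries a lentiviral cassette from which the cytomegalovirus promoter drives human Dkk-1, and all groups share it, as well as a red fluorescent protein label and a medium with 2 mM glutamine. Cultures in log phase were grown for 6 days with regular feeding. Cultures under nutritional stress were held confluent for 48 h in medium that was left unchanged for 4 days. In each condition there were 3 cultures without a morpholino (NT), 3 with 5 µM scrMo and 3 with 5 µM DkkMo. Each morpholino was added 24 h after seeding. DkkMo is a vivo morpholino directed at Dkk-1. The control scrMo, which the study also calls scrambled, was designed with 5 mismatches. The dose and times are those of the labels, and other passages of the sources differ on the DkkMo dose and the length of treatment. This gave 18 libraries in 6 groups. The sources do not say whether the cultures of a group were grown independently, so p-values measure the spread between these cultures.

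ATF4 is a transcription factor whose mRNA is translated when the initiation factor eIF2 is phosphorylated by kinases that sense lack of amino acids, misfolded protein in the endoplasmic reticulum, lack of haem or double-stranded RNA. It binds with C/EBP proteins to a composite element and raises genes for amino acid synthesis, uptake and tRNA charging, together with Ddit3, Atf3, Trib3 and Chac1, which act in prolonged stress, and Ppp1r15a, which directs the dephosphorylation of eIF2. Several of its targets are also driven by other factors, such as NRF2 for Slc7a11 and MYC for the glutamine and large neutral amino acid transporters.

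The deposited values are variance-stabilised and on the log2 scale. Normalized counts (reads divided by the size factor of the library) were recovered from them, and are the levels given for each culture. A log2 fold change subtracts one group's mean deposited value from another's, and is given ± its standard error. A gene was called differentially expressed (DE) at an adjusted p below 0.05 (limma, Benjamini-Hochberg over 16562 genes tested) and a change over 1.5-fold. The words upregulated and downregulated are used only for DE genes. The deposited scale compresses differences between small counts, with a slope of 0.38 at 100, 0.79 at 1000 and 0.97 at 10000 normalized counts relative to a plain log2 scale. In cultures, a lower level of a transcript per cell and fewer cells expressing it cannot be told apart. The human Dkk-1 transcript that DkkMo is directed at was not measured, since reads were aligned to the mouse genome. The lowest library total on the genes tested was 25875666 reads and the highest 44779668. Replicates correlated at a Spearman coefficient of 0.992 to 0.998, but in log phase replicate 1 of each group stood apart. A chi-square per gene of its reads against the other replicates of its group was 13.8 to 34.8, against 4.33 to 15.7 between replicates 2 and 3, and 3.03 to 8.34 within the groups under stress. Among the 40 members, log-phase DkkMo replicate 2 was the lowest of its group for 35 genes, at a median of 84.9% of the group mean, and replicate 1 was the highest for 30, at 114%. The median coefficient of variation of the members was 15.1% in log-phase DkkMo and 2.59% to 7.43% in the other groups. Among lineage markers Runx2, Sox9, Col1a1, Col1a2 and Spp1 each had at least 1520 reads in every culture, while Alpl (7 to 24 reads) and Col2a1 (1 to 23 reads) were near 0, as were the leukocyte marker Ptprc and the epithelial marker Krt8 (each 1 to 24 reads). The endothelial marker Pecam1 was read in every culture (239 to 424 reads). The macrophage markers Cd68 (431 to 1625 reads) and Csf1r (406 to 790 reads) were detected in every culture. Changes of Cd68 and summed counts of the leukocyte markers stand beside some comparisons, and changes of Csf1r alone are not given.

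The composite element bound by ATF4 and C/EBP proteins was searched as TTNCATCA on both strands in RefSeq windows of 250 bases before to 50 bases after each annotated start (build GRCm38.p6). Windows were matched for 34 of 42 members, and there was none for Eif4ebp1, Cth, Slc7a5, Slc7a3, Slc1a5, Nars, Wars and Cars. The letters were found for 12 of these 34 genes (35.3%), against 4.51% of all 27025 genes with a window. The matched members were Atf3, Chac1, Trib3, Slc7a11, Asns, Gars, Nupr1, Aars, Slc1a4, Tars and Vldlr, besides Pycr1. The cyclic AMP response element TGACGTCA, searched in the same way, was found for 1 of the 34 genes, Ppp1r15a (2.94%, against 2.03% of all genes). The following windows of measured members are shown because the element lies before the start. With 30 bases on either side, cut at the start, it also overlaps no annotated UTR. Each belongs to a member that was DE in some comparison below. Trib3 is left out since its element begins after the start, and Tars since its flank overlaps a UTR. Capitals mark the element, in the orientation of the gene.
Atf3, chr1:191183406-191183473, minus strand: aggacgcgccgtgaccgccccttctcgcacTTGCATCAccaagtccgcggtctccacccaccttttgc
Chac1, chr2:119351019-119351086, plus strand: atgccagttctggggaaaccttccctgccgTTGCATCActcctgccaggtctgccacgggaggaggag
Slc7a11, chr3:50443623-50443709, minus strand: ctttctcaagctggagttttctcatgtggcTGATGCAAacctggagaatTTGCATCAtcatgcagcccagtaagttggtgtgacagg
Gars, chr6:55037941-55038000, plus strand: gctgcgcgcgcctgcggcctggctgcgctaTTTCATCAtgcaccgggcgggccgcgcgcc
Vldlr, chr19:27216790-27216857, plus strand: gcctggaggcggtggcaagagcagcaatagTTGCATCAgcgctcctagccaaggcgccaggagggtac
The element begins 110 bases before the start in Atf3, 193 in Chac1, 30 in Gars and 200 in Vldlr. Slc7a11 holds 2 copies on opposite strands, 66 and 47 bases before the start. A match to these letters is a description of the sequence and not evidence of binding.

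Per kilobase of merged exons (GENCODE M21), the members spanned a wide range of levels. The highest mean over the 6 groups was that of Slc3a2, the heavy chain shared by several amino acid exchangers, at 8282 normalized counts per kilobase. It was followed by Ddit3 (8164), which encodes the factor CHOP and exceeded Slc3a2 in log-phase NT and in both scrMo groups, and by Ppp1r15a (5644), Atf5 (5509), Shmt2 (4870) and Asns (4390). At the other end were Cbs, the first enzyme of transsulfuration, at 0.828, Stc2, a secreted glycoprotein, at 6.27, and Slc7a3, a cationic amino acid transporter, at 49.5 normalized counts per kilobase. Cbs had 1.02 to 11.6 normalized counts in all 18 cultures and was DE in no comparison. Exons of another gene on the same strand overlap Cebpg and Aars, and exons on the other strand overlap 7 further members (Atf5, Cebpb, Ppp1r15a, Psph, Shmt2, Slc6a9 and Cars), for which reads cannot be told apart if strand was not used in counting.

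**Figure D1:**
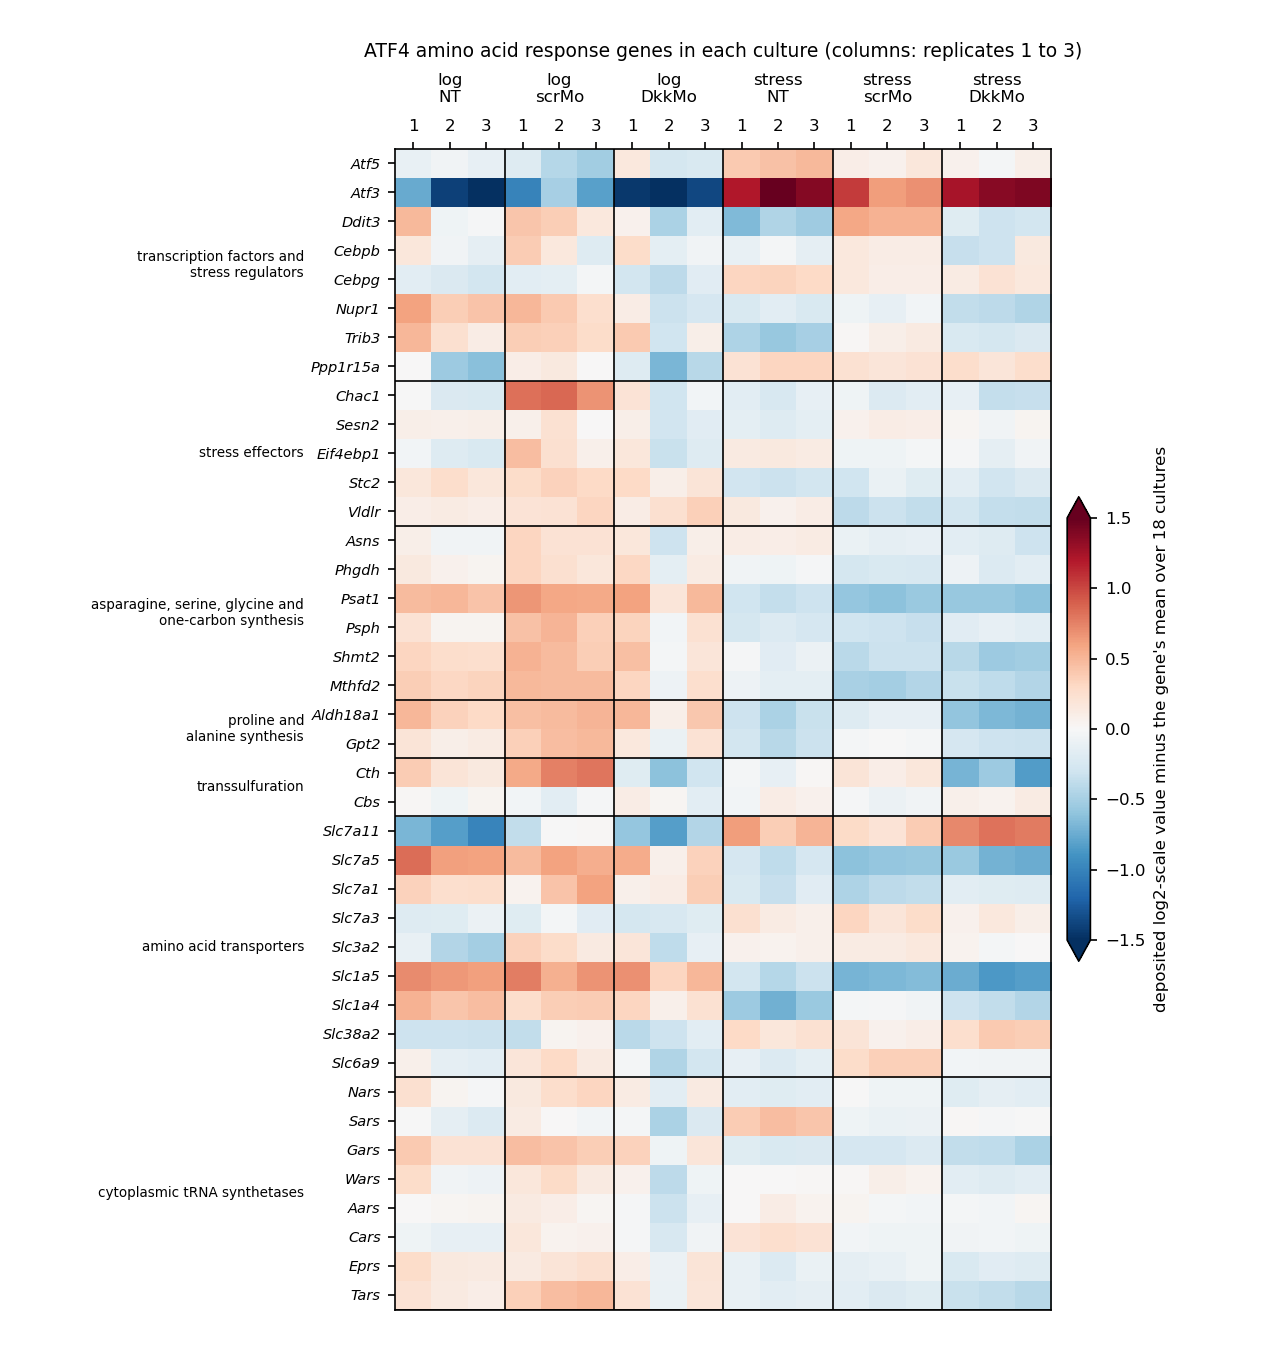
Each row is one of the 40 measured members and each column one culture, and the colour gives the deposited log2-scale value minus the mean of that gene over the 18 cultures. Atf3 and Slc7a11 were higher, and Psat1, Slc7a5 and Slc1a5 lower, under nutritional stress than in log phase, and log-phase DkkMo replicate 2 was pale or blue in most rows.

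Nutritional stress was compared with log phase in each treatment to ask how the response stood in confluent cultures with unchanged medium. Members were upregulated and downregulated in each treatment. Of 40 members, 3 were upregulated in NT cultures, 1 in scrMo and 4 in DkkMo, beside 8.22%, 4.38% and 6.24% of all genes tested. In the same order, 8, 12 and 6 members were downregulated, beside 9.90%, 6.28% and 10.2% of all genes. The median log2 fold change of the members was -0.19 in NT, -0.30 in scrMo and -0.21 in DkkMo, against -0.01 over all genes in each. Centring each library on its median gene raised the median of all genes to 0.14 in NT, 0.06 in scrMo and 0.15 in DkkMo, so that changes are relative to the scaling used. With that centring 7 members were upregulated and 6 downregulated in NT, 1 and 9 in scrMo, and 5 and 4 in DkkMo. Beside them, of 16562 genes tested, 2244 and 1120 were so called in NT, 947 and 845 in scrMo, and 1908 and 1093 in DkkMo. The median of the members was then -0.03, -0.24 and -0.05. Without log-phase DkkMo replicate 1 the median in DkkMo was -0.11, and without replicate 2 it was -0.34. Lineage markers moved as well: Col1a1, a chain of type I collagen, was 10.7-fold lower under stress in NT, 3.19-fold in scrMo and 10.4-fold in DkkMo, and Runx2, the osteoblast regulator, 2.44-fold, 1.67-fold and 1.83-fold higher. Cd68 was upregulated 3.57-fold in NT and 2.13-fold in DkkMo. The normalized counts of the leukocyte markers (3 of 5 measured) summed to 840.2 to 894 in log-phase NT, 1321 to 1772 in log-phase scrMo, 1093 to 1335 in log-phase DkkMo and 1996 to 2294 in the stressed groups, with Ptprc near 0. The part of these shifts in the members' values was not tested.

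**Figure D2:**
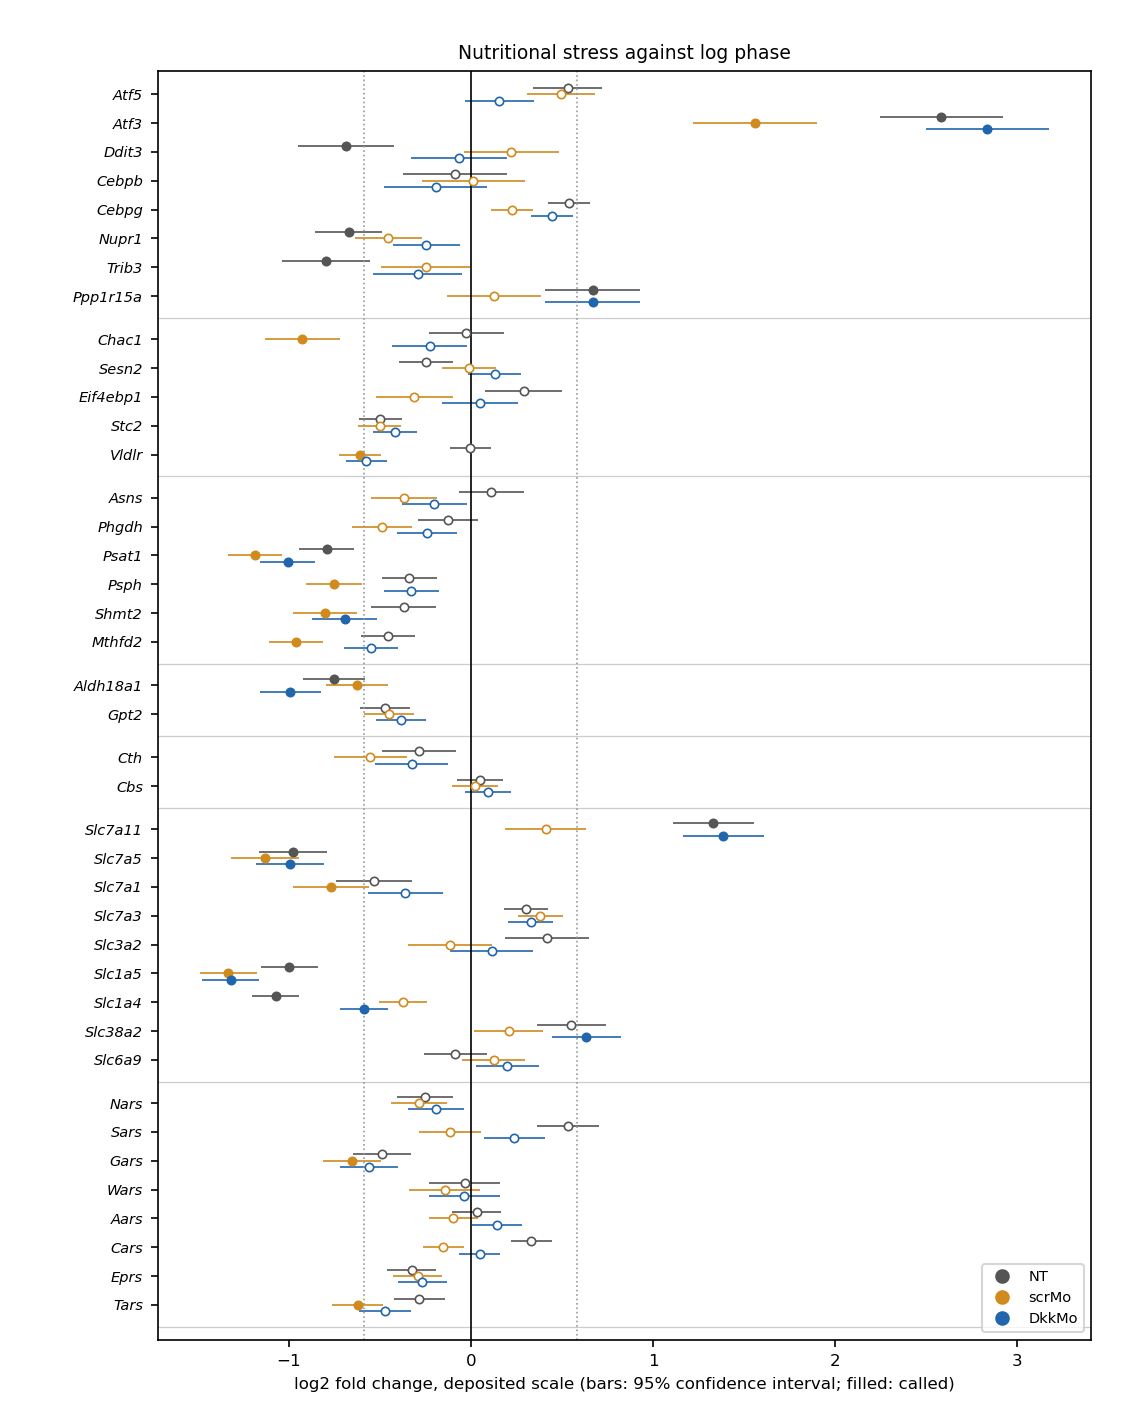
Points are log2 fold changes of nutritional stress against log phase on the deposited scale for each member, with 95% confidence intervals, in NT (grey), scrMo (orange) and DkkMo (blue) cultures. Filled points are DE and dotted lines mark 1.5-fold. Atf3 stands at 1.56 to 2.84 in the 3 treatments, and Slc1a5 is filled and left of the lower line in each.

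Atf3 (GRCm38 chr1:191170296-191218039, minus strand), a stress-induced transcription factor of the same family, showed the largest change of any member in each treatment on the deposited scale. Of the 8 regulators measured, 2 were upregulated and 3 downregulated in NT, 1 and none in scrMo, and 2 and none in DkkMo. Beside them stood 8.22% and 9.90% of all genes in NT, 4.38% and 6.28% in scrMo, and 6.24% and 10.2% in DkkMo. In log phase the normalized counts of Atf3 were 1445, 830.2 and 753 in NT, 1171, 1781 and 1374 in scrMo and 794, 635 and 859 in DkkMo cultures. Under stress they were 6395, 8064 and 7253 in NT, 5753, 4210.2 and 4383 in scrMo and 6572, 7234 and 7422 in DkkMo cultures. All stressed cultures lay above all those in log phase, and an exact permutation test of 3 cultures against 3, which cannot give a p below 0.1, gave p = 0.1 for each treatment, as it did for each DE member in the comparisons of groups below. The mean rose 7.17-fold in NT, 3.32-fold in scrMo and 9.28-fold in DkkMo, with log2 fold changes of 2.58 ± 0.16, 1.56 ± 0.16 and 2.84 ± 0.16 and limma adjusted p of 5.26e-11, 1.27e-07 and 2.10e-11. The rise was smaller in scrMo than in NT, with a difference of -1.02 ± 0.23 (adjusted p = 0.00122), and larger in DkkMo than in scrMo, with a difference of 1.28 ± 0.23 (adjusted p = 6.08e-04).

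Ddit3 (chr10:127290829-127293753), the mediator of death in prolonged stress, did not follow Atf3. Its log-phase counts were 18927, 12895 and 13347 in NT, 18097, 17427 and 15091 in scrMo and 14131, 9616 and 12015 in DkkMo cultures. Stressed cultures had 8420.4, 9741 and 9241 in NT, 20196, 19475 and 19378 in scrMo and 11804, 10838 and 11100.5 in DkkMo. The stressed NT cultures were all below the log-phase NT cultures, and the stressed scrMo cultures were above every other culture of the 18. Against log phase the log2 fold change was -0.68 ± 0.13 in NT (adjusted p = 8.58e-05), 0.22 ± 0.13 in scrMo (adjusted p = 0.137) and -0.07 ± 0.13 in DkkMo (adjusted p = 0.665). Log-phase NT replicate 1 was the highest of its group, and without it the NT value was -0.51 and no longer DE, as it was after centring (-0.53).

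Trib3, a pseudokinase that restrains ATF4 and AKT, was at 10834, 9060.0 and 8262 normalized counts in NT, 9882, 9804 and 9258 in scrMo and 10077, 6122 and 8086 in DkkMo cultures in log phase. Under stress it was at 5440.4, 5036 and 5297 in NT, 7729.9, 8121 and 8368 in scrMo and 6471, 6298 and 6506 in DkkMo. The stressed NT cultures were the lowest 3 of the 18. Trib3 was downregulated in NT (-0.79 ± 0.12, adjusted p = 5.78e-06) and stood at -0.25 ± 0.12 in scrMo and -0.29 ± 0.12 in DkkMo, where it was not DE.

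Ppp1r15a, the stress-induced subunit that directs a phosphatase to eIF2, had 16263, 11034 and 10409 normalized counts in NT, 17351, 17925 and 16301 in scrMo and 14161, 9925 and 12030.4 in DkkMo cultures in log phase. In stressed cultures it had 18836, 20234 and 20245 in NT, 19077, 18403 and 18847 in scrMo and 19462, 18348 and 19539.5 in DkkMo. The 9 stressed cultures lay within a narrow range above those of log phase. It was upregulated 1.57-fold in NT (adjusted p = 9.47e-05) and 1.59-fold in DkkMo (adjusted p = 1.00e-04), but not in scrMo (0.13 ± 0.12), whose log-phase cultures were already the highest. The NT call was lost without log-phase NT replicate 3 (0.55) and the DkkMo call without log-phase DkkMo replicate 2 (0.54).

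Of the other transcription factors, Nupr1, a small chromatin-bound stress protein, was downregulated in NT cultures, from a mean of 7245 ± 638 to 4429.6 ± 137 normalized counts (SD, n = 3). Its change was -0.67 on the log2 scale (adjusted p = 1.53e-06) and -0.51 after centring, which was no longer DE, and it stood at -0.45 in scrMo and -0.25 in DkkMo. Atf5, a relative of Atf4 that is itself controlled in translation, stood at 0.53 in NT, 0.49 in scrMo and 0.15 in DkkMo, and Cebpg, a dimer partner of ATF4, at 0.54, 0.23 and 0.44, all below 1.5-fold and all but Atf5 in DkkMo at an adjusted p below 0.05. Cebpb, another such partner, ranged from 2999.9 to 3714 normalized counts over the group means and stood at -0.09, 0.01 and -0.19, none with an adjusted p below 0.05.

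**Figure D3:**
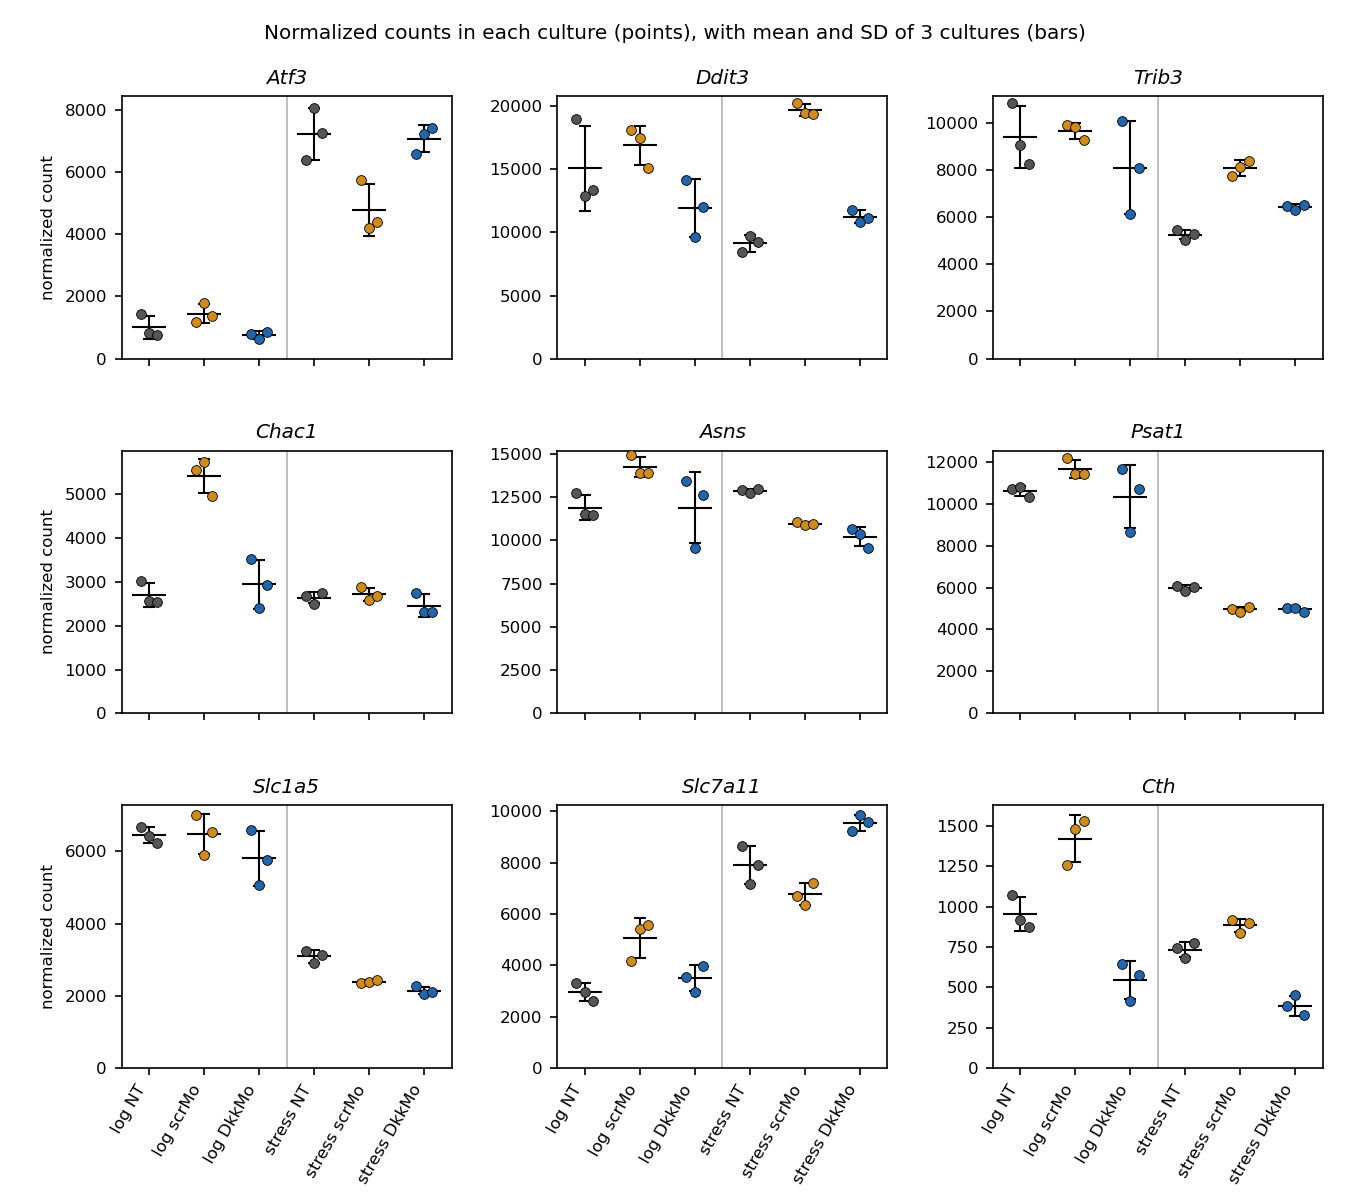
Normalized counts of 9 members in each of the 18 cultures (points, grey for NT, orange for scrMo and blue for DkkMo), with the mean and SD of 3 cultures as bars and axes that start at 0. Atf3 and Slc7a11 were higher and Psat1 and Slc1a5 lower in all stressed groups, Chac1 stood out in log-phase scrMo, Ddit3 was highest in stressed scrMo, and Cth was lowest in DkkMo in both conditions.

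Among the stress effectors, Chac1, which degrades glutathione, held 3017, 2555 and 2529.7 normalized counts in NT, 5555, 5722 and 4968 in scrMo and 3518, 2402 and 2922 in DkkMo cultures in log phase. Under stress it held 2686, 2503 and 2738 in NT, 2881, 2588 and 2673 in scrMo and 2756, 2302 and 2322 in DkkMo. The 3 log-phase scrMo cultures were above all others, and the remaining groups overlapped. Chac1 was downregulated by stress only in scrMo (-0.93 ± 0.10, adjusted p = 1.70e-07), at -0.03 ± 0.10 in NT and -0.23 ± 0.10 in DkkMo. The difference of scrMo minus NT (-0.90, adjusted p = 3.63e-05) and that of DkkMo minus scrMo (0.70, adjusted p = 0.00135) were themselves called, the latter not without log-phase DkkMo replicate 2 (0.57). Vldlr, a lipoprotein receptor, was downregulated in scrMo, from 3303 ± 159.8 to 2069 ± 63.3 normalized counts, and stood at -0.61 there, -0.57 in DkkMo and 0.00 in NT. The scrMo call was lost after centring (-0.54) and without log-phase scrMo replicate 3 (-0.57). Stc2 had 49.4 ± 7.18 normalized counts in log phase and 7.54 ± 1.19 under stress in NT, and its log2 fold change was -0.50 on the deposited scale but -2.56 on the log2 (normalized count + 1) scale, where it was DE in all 3 treatments. Sesn2, an inhibitor of mTORC1, and Eif4ebp1, a repressor of cap-dependent translation, kept between 2800.3 and 3441 and between 8017 and 10798 normalized counts over the group means and were DE in no treatment.

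Of the 6 genes of asparagine, serine, glycine and one-carbon synthesis, 1 was downregulated in NT, 4 in scrMo and 2 in DkkMo, none was upregulated, and the median log2 fold change was -0.35, -0.78 and -0.44. Of all genes, 9.90%, 6.28% and 10.2% were downregulated and 8.22%, 4.38% and 6.24% upregulated. Psat1, the transaminase of serine synthesis, had 10679, 10785 and 10321 normalized counts in NT, 12162, 11423 and 11391 in scrMo and 11632, 8669 and 10700.2 in DkkMo cultures in log phase. Under stress it had 6090.1, 5858 and 6036 in NT, 4974, 4842 and 5049 in scrMo and 5009.9, 5017 and 4854 in DkkMo. No stressed culture reached the lowest culture of log phase. Psat1 fell 1.77-fold in NT, 2.35-fold in scrMo and 2.08-fold in DkkMo, with limma adjusted p of 9.18e-09, 8.27e-11 and 3.79e-10. Mthfd2, a mitochondrial folate enzyme, was at 5403, 5174 and 5299 in NT, 5914, 5867 and 5832 in scrMo and 5219, 3894 and 4993 in DkkMo cultures in log phase. Its stressed values were 3918, 3706 and 3712 in NT, 2863, 2804 and 2981 in scrMo and 3219, 3111 and 2976 in DkkMo. Mthfd2 was downregulated in scrMo (-0.96 ± 0.07, adjusted p = 1.60e-09), and stood at -0.46 in NT and -0.55 in DkkMo. Shmt2, which splits serine into glycine and a one-carbon unit in mitochondria, was downregulated in scrMo (-0.80) and DkkMo (-0.69), the latter lost after centring (-0.53) and without log-phase DkkMo replicate 1 (-0.57). Also downregulated was Psph, the phosphatase that completes serine synthesis, in scrMo (-0.75). Phgdh, the first enzyme of that pathway, stood at -0.13, -0.49 and -0.24 in NT, scrMo and DkkMo and was DE in none.

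Asns, which makes asparagine and is a classical target of the pathway, was DE in none of the 3 treatments. Its normalized counts were 12732, 11494 and 11444 in NT, 14917, 13913 and 13900.2 in scrMo and 13447, 9571 and 12637 in DkkMo cultures in log phase. Under stress they were 12893, 12735 and 12959 in NT, 11079, 10861 and 10932 in scrMo and 10661, 10383 and 9585 in DkkMo. Stressed and log-phase cultures overlapped in DkkMo, lay side by side in NT and were apart in scrMo. The log2 fold change was 0.11 (95% confidence interval -0.07 to 0.29) in NT, -0.37 (95% confidence interval -0.55 to -0.19) in scrMo and -0.20 (95% confidence interval -0.38 to -0.02) in DkkMo.

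Aldh18a1, the first enzyme of proline synthesis, was downregulated in all 3 treatments. It held 11158, 10023 and 9690.2 normalized counts in NT, 10824, 10991 and 11308 in scrMo and 11218, 8366 and 10475 in DkkMo cultures in log phase. Under stress it held 6257, 5579 and 6141 in NT, 6802, 7178 and 7180.2 in scrMo and 5099, 4797 and 4688 in DkkMo. The stressed cultures were all lower, by 1.72-fold in NT, 1.57-fold in scrMo and 2.06-fold in DkkMo (adjusted p = 1.03e-07, 1.94e-06 and 2.52e-09). After centring, the scrMo value (-0.56) was no longer DE. Gpt2, the mitochondrial alanine transaminase, ranged from 1553 to 2850.0 normalized counts over the group means and stood at -0.47, -0.45 and -0.38, below 1.5-fold. In transsulfuration, Cth, which releases cysteine from cystathionine, stood at -0.29, -0.55 and -0.33 and was DE in none of the 3.

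The amino acid transporters were divided. Slc7a11, the cystine and glutamate exchanger, was upregulated in NT and DkkMo, and Slc38a2 in DkkMo. Slc1a5 and Slc7a5 were downregulated in all 3 treatments, Slc1a4 in NT and DkkMo, and Slc7a1 in scrMo. Of 9 transporters, 1 was upregulated and 3 were downregulated in NT, none and 3 in scrMo, and 2 and 3 in DkkMo. Beside them stood 8.22% and 9.90% of all genes in NT, 4.38% and 6.28% in scrMo, and 6.24% and 10.2% in DkkMo. In log phase Slc7a11 had 3307, 2972 and 2623 normalized counts in NT, 4157, 5429 and 5565 in scrMo and 3555, 2969 and 3970.5 in DkkMo cultures. Stressed cultures had 8633, 7153 and 7895 in NT, 6720.4, 6363 and 7208 in scrMo and 9223, 9861 and 9575 in DkkMo. The stressed groups did not overlap with their log-phase groups. The mean rose 2.66-fold in NT (log2 1.33 ± 0.11, adjusted p = 1.55e-09) and 2.73-fold in DkkMo (log2 1.39 ± 0.11, adjusted p = 1.06e-09). In scrMo, where the log-phase level was higher, the log2 fold change was 0.41 ± 0.11 and below 1.5-fold, a difference of -0.92 from NT (adjusted p = 6.11e-05) and of 0.98 for DkkMo over scrMo (adjusted p = 1.42e-04).

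Slc1a5, the main carrier of glutamine, had 6673, 6435 and 6228 normalized counts in NT, 6996, 5896 and 6523 in scrMo and 6596, 5067 and 5756 in DkkMo cultures in log phase. Under stress it had 3229, 2898 and 3136 in NT, 2354, 2392 and 2434 in scrMo and 2262, 2057 and 2116 in DkkMo. Every stressed culture was below every log-phase culture, and the mean fell 2.09-fold, 2.7-fold and 2.71-fold in NT, scrMo and DkkMo (adjusted p = 6.39e-10, 3.26e-11 and 1.74e-11). Slc7a5, the light chain of the exchanger for leucine and other large neutral amino acids, had 5203, 4434 and 4392 in NT, 3988, 4397 and 4229.8 in scrMo and 4245, 2975 and 3618 in DkkMo as normalized counts in log phase. Its stressed values were 2303, 2093 and 2299 in NT, 1730.1, 1784 and 1794 in scrMo and 1821, 1609 and 1561 in DkkMo. The conditions did not overlap in any treatment, and Slc7a5 was downregulated by 2.1-fold, 2.38-fold and 2.17-fold. Slc3a2, the heavy chain that pairs with both Slc7a5 and Slc7a11, followed neither, at 0.42, -0.11 and 0.11, and was DE in none.

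Slc1a4, a carrier of alanine, serine and cysteine, had 5249, 4870.3 and 5021 normalized counts in NT, 4359, 4715 and 4762 in scrMo and 4554, 3802 and 4227 in DkkMo cultures in log phase. Stressed cultures had 2373, 2057 and 2334 in NT, 3505, 3531 and 3440.4 in scrMo and 2824, 2701 and 2560.3 in DkkMo. All stressed groups lay below their log-phase groups, and Slc1a4 was downregulated in NT (-1.07 ± 0.06, adjusted p = 1.85e-11) and DkkMo (-0.59 ± 0.06, adjusted p = 1.09e-07). The DkkMo call was narrow, and was lost without DkkMo replicate 1 (-0.53) or 3 (-0.58) of log phase, without stressed DkkMo replicate 3 (-0.55), and after centring (-0.42). In scrMo the value was -0.37, and its difference from NT was 0.70 (adjusted p = 4.35e-06).

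Slc38a2, a sodium-coupled neutral amino acid carrier that is induced by amino acid shortage, had 15868, 15994 and 15786 normalized counts in NT, 15312, 20455 and 20811 in scrMo and 14884, 15871 and 17677 in DkkMo cultures in log phase. Under stress it had 24537, 22386 and 23308 in NT, 22761, 20772 and 21333 in scrMo and 23645, 26142 and 25661 in DkkMo. It was upregulated in DkkMo (0.63 ± 0.09, adjusted p = 5.21e-06, but 0.58 and not DE without log-phase DkkMo replicate 1), and stood at 0.55 in NT and 0.21 in scrMo. Slc7a1, a carrier of arginine and lysine, was downregulated in scrMo (-0.77) and stood at -0.53 in NT and -0.36 in DkkMo. Slc7a3, at group means of 131 to 258 normalized counts, stood at 0.30, 0.38 and 0.33 on the deposited scale, and at 0.62, 0.76 and 0.69 on the log2 (normalized count + 1) scale, where it was DE in all 3 treatments. Slc6a9, a glycine transporter, was DE in none, with group means of 4060.2 to 6174 normalized counts.

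The cytoplasmic tRNA synthetases, which charge tRNAs with amino acids, were DE in few cases. None of the 8 was DE in NT or DkkMo, and 2 were downregulated in scrMo, Gars for glycine (-0.65) and Tars for threonine (-0.62), the latter -0.56 and no longer DE after centring. Of all genes, 9.90% were downregulated in NT, 6.28% in scrMo and 10.2% in DkkMo, and 8.22%, 4.38% and 6.24% upregulated. The median log2 fold change of the 8 synthetases was -0.14 in NT, -0.22 in scrMo and -0.11 in DkkMo. Sars, for serine, stood at 0.53 in NT, -0.12 in scrMo and 0.24 in DkkMo, and the difference between scrMo and NT was called (-0.65, adjusted p = 1.44e-04). Cars, for cysteine, stood at 0.33, -0.15 and 0.05. Eprs, for glutamate and proline, stood at -0.33, -0.29 and -0.27, and Nars, for asparagine, at -0.25, -0.28 and -0.19. Aars, for alanine, and Wars, for tryptophan, stood within -0.15 and 0.14 in all 3 treatments, with adjusted p above 0.05.

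DkkMo was then compared with scrMo in each condition, the comparison that addresses blockade of Dkk-1. In log phase 38 of 40 members were lower with DkkMo, with a median log2 fold change of -0.25 against 0.00 over all genes. The scrMo libraries of this comparison stood above NT for 35 of 40 members (median 0.14). With DkkMo against NT the median was -0.06, with 30 members below 0. For DkkMo against scrMo, Cth, Chac1 and Atf3 led the list. By the call rule 3 members were downregulated and none upregulated, beside 0.308% and 1.66% of all genes. At an adjusted p below 0.05 without the fold threshold, 24 members were lower and 1, Atf5, was higher, beside 9.20% and 14.3% of all genes. Part of that count rested on log-phase DkkMo replicate 2, the culture with the lowest values. Without it 10 members were lower at that adjusted p, beside 5.13% of all genes, and the median was -0.14, with 38 members still below 0 and the same 3 called. Without replicate 1 of every log-phase group, an alternative chosen after the replicates had been compared, 6 were downregulated and the median was -0.33. At that adjusted p 33 members were then lower, beside 13.3% of all genes. In the same comparison Col1a1 was 2.54-fold and Col1a2 2.04-fold higher with DkkMo, and no leukocyte, endothelial or epithelial marker was DE (limma), and their part was not tested.

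**Figure D4:**
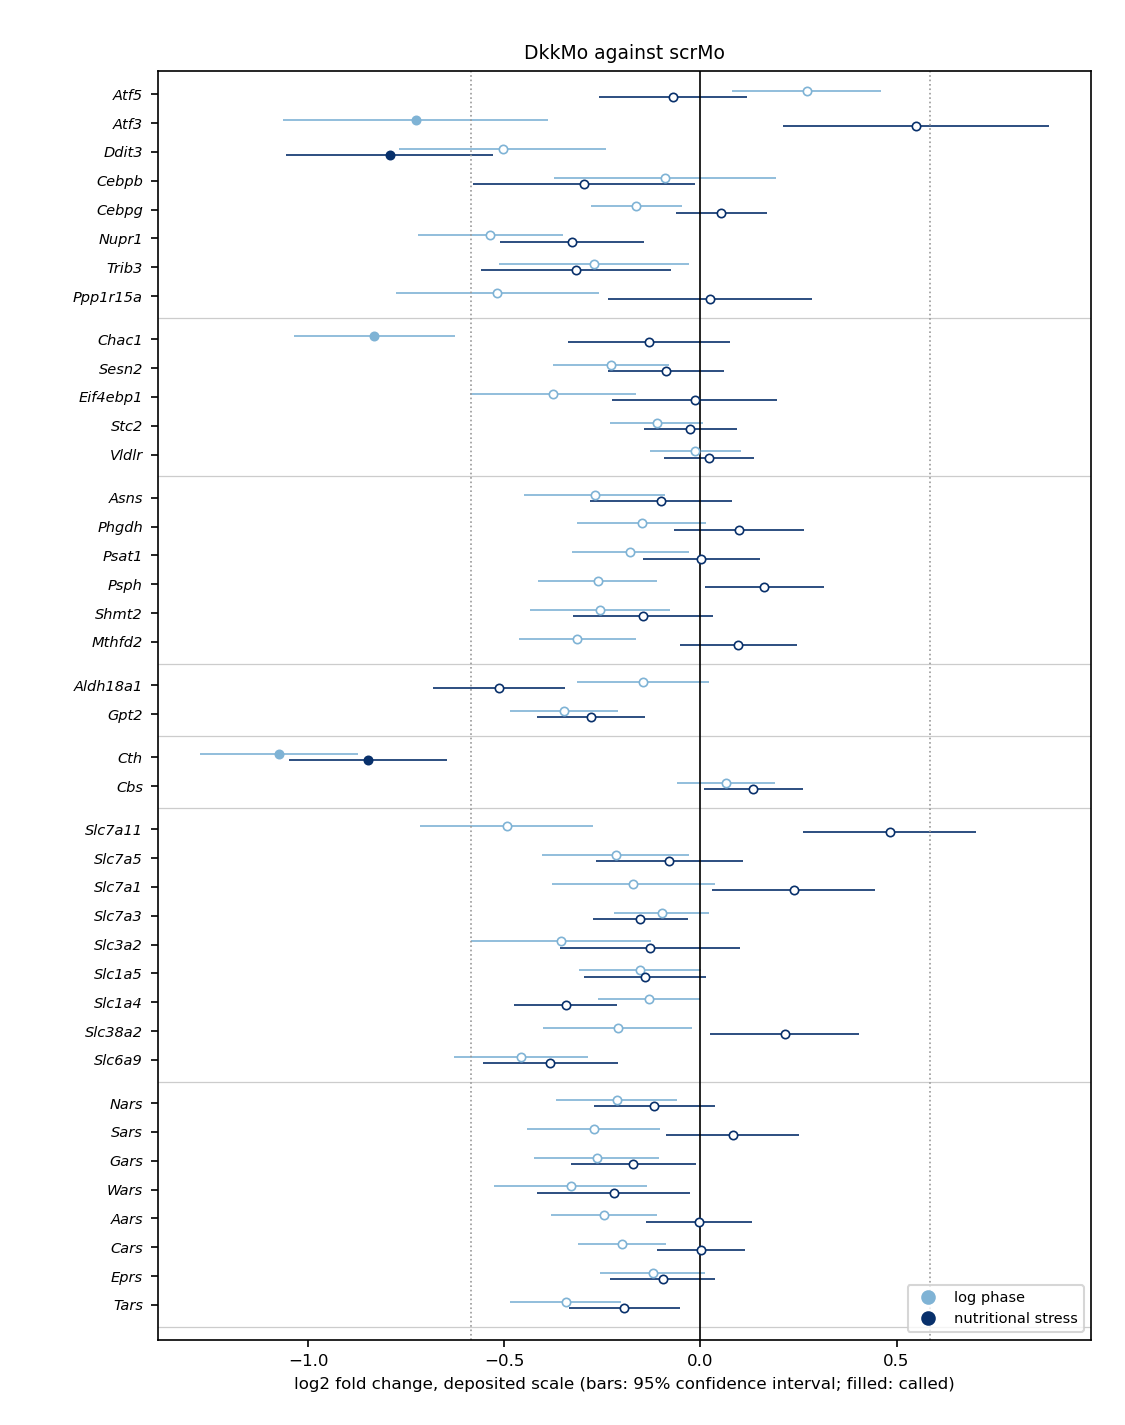
Points are log2 fold changes of DkkMo against scrMo on the deposited scale for each member, with 95% confidence intervals, in log phase (light blue) and under nutritional stress (dark blue). Filled points are DE and dotted lines mark 1.5-fold. In log phase 38 of 40 points lie left of 0, and Cth is DE in both conditions.

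Cth (chr3:157894248-157925077) had 1259, 1478 and 1529.5 normalized counts in log-phase scrMo and 646, 416 and 578 in log-phase DkkMo cultures, beside 1071, 914 and 873 in NT. Under stress it had 917, 837 and 898 with scrMo and 382, 449 and 326 with DkkMo, beside 742, 684 and 775 in NT. The DkkMo cultures were below both other groups in each condition, with no overlap. Cth was 2.6-fold lower with DkkMo than with scrMo in log phase (log2 -1.07 ± 0.10, adjusted p = 6.50e-07) and 2.29-fold lower under stress (log2 -0.85 ± 0.10, adjusted p = 4.64e-06). Against NT it was 1.74-fold lower in log phase (adjusted p = 4.43e-04) and 1.9-fold lower under stress (adjusted p = 3.71e-05). The effect under stress minus that in log phase was 0.23 (95% confidence interval -0.06 to 0.51), which was not called (adjusted p = 0.254).

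The counts of Chac1 given above fell from a mean of 5415 ± 396 with scrMo to 2948 ± 558 with DkkMo in log phase (SD, n = 3), which is -0.83 ± 0.10 on the log2 scale (adjusted p = 9.80e-06). The DkkMo cultures overlapped with those of NT, against which the log2 fold change was 0.10 (95% confidence interval -0.10 to 0.31). Under stress DkkMo and scrMo stood at -0.13 (95% confidence interval -0.34 to 0.07), and the difference between conditions was 0.70 (SE 0.14, adjusted p = 0.00135), or 0.57 and not called without log-phase DkkMo replicate 2. Atf3 was 1.89-fold lower with DkkMo in log phase (-0.73 ± 0.16, adjusted p = 0.00278) and 1.48-fold higher under stress, at 0.55 ± 0.16 (adjusted p = 0.0201) and just under the fold threshold.

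The members that passed the adjusted p but not the fold threshold in log phase came from most roles. By adjusted p alone 9.20% of all genes were lower. All 8 tRNA synthetases were lower, 7 of them at an adjusted p below 0.05, from -0.20 for Cars to -0.34 for Tars, with Eprs at -0.12 not passing. Of the synthesis genes, Asns (-0.27 ± 0.09), Psph (-0.26), Shmt2 (-0.25), Mthfd2 (-0.31) and Gpt2 (-0.35) passed, while Psat1 (-0.18), Phgdh (-0.15) and Aldh18a1 (-0.15) did not. Among regulators Nupr1 (-0.54), Ppp1r15a (-0.52), Ddit3 (-0.50) and Cebpg (-0.16) passed, as did the effectors Eif4ebp1 (-0.38) and Sesn2 (-0.23). All 9 transporters were below 0, and Slc7a11 (-0.49), Slc6a9 (-0.46) and Slc3a2 (-0.36) passed. Each of these changes was below 1.5-fold.

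Under nutritional stress the median log2 fold change of DkkMo against scrMo was -0.09 against 0.00 over all genes, with 26 of 40 members below 0. Cth and Ddit3 were downregulated and none was upregulated, beside 0.489% and 0.513% of all genes. At an adjusted p below 0.05 alone, 8 members were lower and 2, Atf3 and Slc7a11, were higher, beside 10.9% and 9.97% of all genes. Ddit3 fell from 19683 ± 447 with scrMo to 11248 ± 499.6 with DkkMo (log2 -0.79 ± 0.13, adjusted p = 1.57e-04), and the DkkMo cultures lay between the scrMo and the NT cultures without overlapping either. Slc7a11 was 1.41-fold higher with DkkMo under stress (0.48 ± 0.11, adjusted p = 0.00276) and 1.44-fold lower in log phase (adjusted p = 0.00201), with groups that did not overlap in either condition. Aldh18a1 stood at -0.51 (adjusted p = 1.43e-04), below 1.5-fold. Asns stood at -0.10 (95% confidence interval -0.28 to 0.08) and Psat1 at 0.00 (95% confidence interval -0.15 to 0.15).

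The difference between conditions in the effect of DkkMo against scrMo was called as positive for 3 members, Atf3, Slc7a11 and Chac1, and as negative for none, beside 0.869% and 2.83% of all genes. For Slc7a11 it was 0.98 ± 0.15 (adjusted p = 1.42e-04). For each of the 3 the log-phase mean was higher in scrMo than in NT and DkkMo, with single cultures of scrMo and NT that overlapped for Atf3.

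The control scrMo was compared with NT to see which levels moved with the mismatched morpholino. In log phase 35 of 40 members were higher with scrMo, at a median log2 fold change of 0.14 against 0.00 over all genes. Chac1, Slc7a11 and Slc3a2 were upregulated and none was downregulated, beside 0.592% and 1.85% of all genes. By adjusted p alone 13 members were higher and 1, Atf5, was lower, beside 11.8% and 14.6% of all genes. Chac1 rose 2.01-fold (log2 0.94 ± 0.10, adjusted p = 1.17e-06) and Slc7a11 1.7-fold (log2 0.71 ± 0.11, adjusted p = 6.38e-05), both without overlap between groups. Slc3a2 had 26623, 21239 and 20255 normalized counts in NT, 36824, 34879.6 and 31643 in scrMo and 32918, 22105 and 26495 in DkkMo cultures in log phase, and 30233, 30040.5 and 30430.1 in NT, 31479.9, 31514 and 32253 in scrMo and 29951, 28239.9 and 28945 in DkkMo under stress. The log-phase scrMo cultures were above the NT cultures, and the DkkMo cultures overlapped with both. Its log2 fold change of scrMo against NT was 0.60 ± 0.11 (adjusted p = 4.40e-04), which was lost without NT replicate 2 (0.56) or 3 (0.53) or scrMo replicate 1 (0.55). Without NT replicate 1, 5 members were upregulated, and without replicate 1 of every log-phase group 6 were. Cd68 was also 2.39-fold higher with scrMo in log phase, and Col1a1, Col1a2 and Spp1 were 1.9-fold, 2.09-fold and 1.82-fold lower, whose part was not tested.

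**Figure D5:**
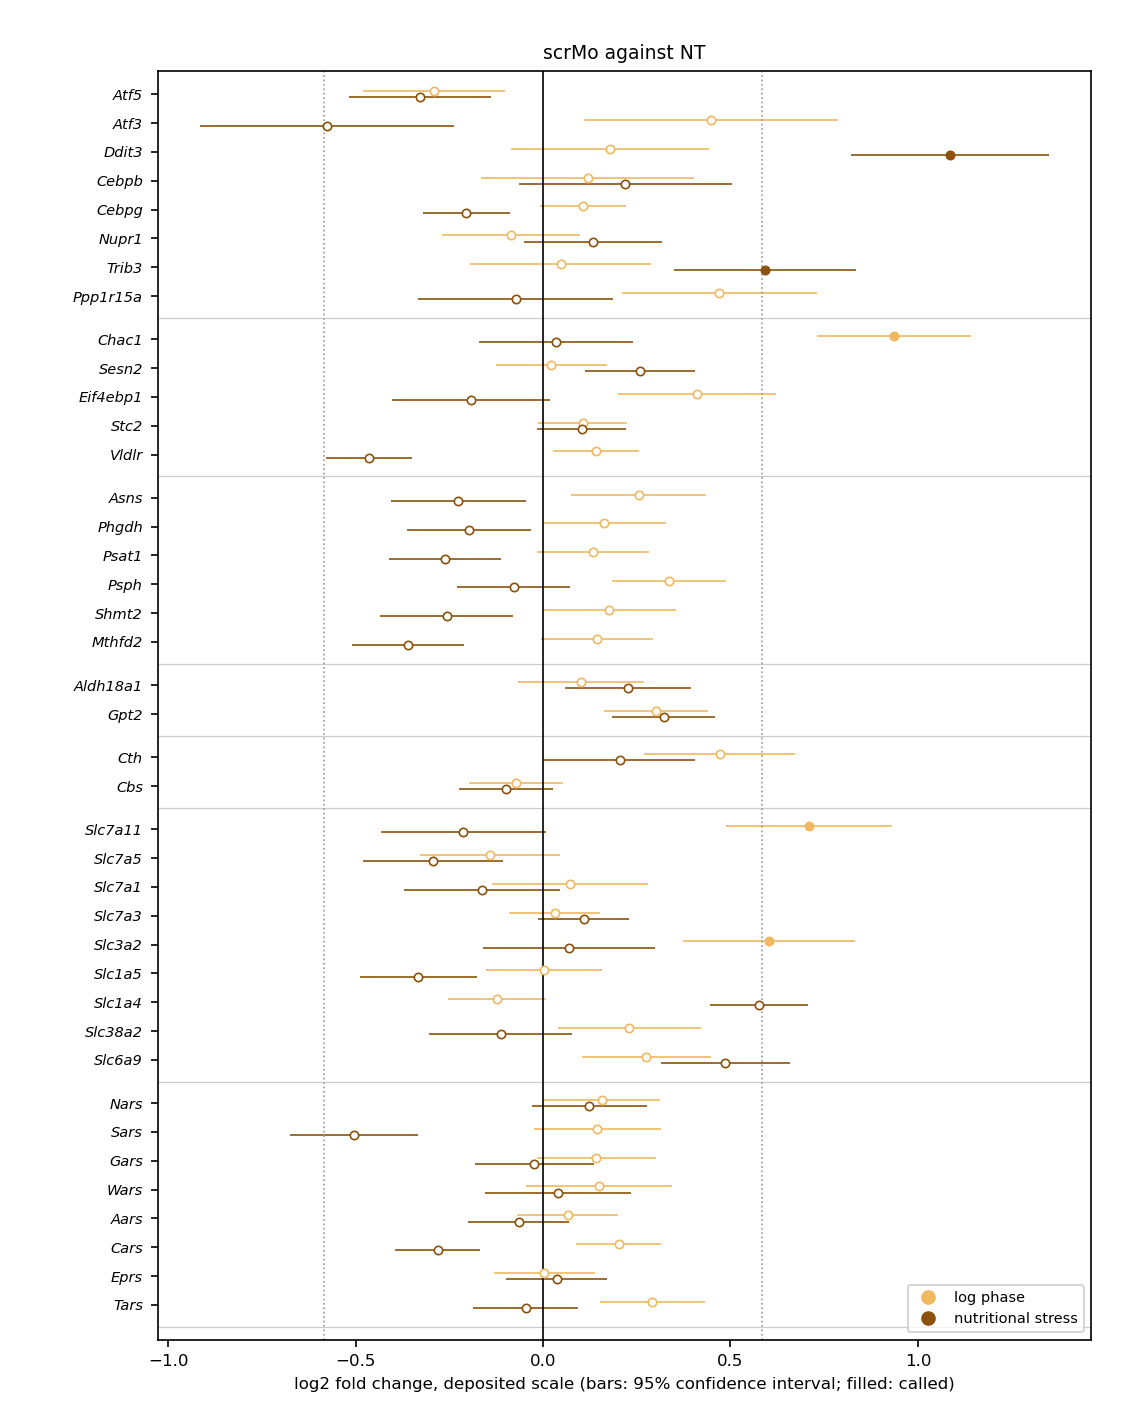
Points are log2 fold changes of scrMo against NT on the deposited scale for each member, with 95% confidence intervals, in log phase (light orange) and under nutritional stress (brown). Filled points are DE and dotted lines mark 1.5-fold. Chac1, Slc7a11 and Slc3a2 are DE in log phase, and Ddit3 and Trib3 under stress.

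Under stress the median of scrMo against NT was -0.07, against 0.00 over all genes, and 17 of 40 members were above 0. Ddit3 and Trib3 were upregulated and none was downregulated, beside 1.90% and 2.54% of all genes. By adjusted p alone 7 members were higher and 13 lower, beside 22.1% and 24.7% of all genes. Ddit3 rose 2.15-fold, from 9134 ± 667 to 19683 ± 447 normalized counts (log2 1.09 ± 0.13, adjusted p = 1.36e-06). Trib3 rose 1.54-fold (log2 0.59 ± 0.12, adjusted p = 3.61e-04), and this call was lost without stressed NT replicate 2 (0.56), without stressed scrMo replicate 3 (0.57) and after centring (0.55). On the log2 (normalized count + 1) scale 3 members were upregulated and 1 downregulated, beside 1858 and 1065 of 16562 genes tested. After centring the members called were 1 and 1, beside 243 and 524 of all genes. Slc1a4 stood at 0.58 (adjusted p = 6.11e-07) and Atf3 at -0.58 (adjusted p = 0.00664), both just under the fold threshold. All 6 genes of asparagine, serine, glycine and one-carbon synthesis were below 0, from -0.08 for Psph to -0.36 for Mthfd2, and 5 passed the adjusted p. Col1a1 and Col1a2 were 1.76-fold and 2.71-fold higher with scrMo in this comparison. Of the 7 lineage markers measured, 2 were higher and 2 lower at an adjusted p below 0.05, and 4 were below 0. The part of these markers was not tested.

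The effect of scrMo against NT differed between conditions for 8 members. It was called higher under stress than in log phase for 2, Ddit3 and Slc1a4 (5.55% of all genes), and lower for 6, Atf3, Slc7a11, Chac1, Sars, Vldlr and Eif4ebp1 (5.37% of all genes).

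DkkMo was also set beside NT. These comparisons share the DkkMo libraries with those against scrMo. In log phase Nupr1 and Cth were downregulated and none was upregulated, beside 0.314% and 0.513% of all genes, and the median was -0.06. By adjusted p alone 4 members were lower and 0 higher, beside 4.46% and 5.36% of all genes. Nupr1 fell from 7245 ± 638 to 4649 ± 842 normalized counts (-0.62 ± 0.09, adjusted p = 1.44e-04). Neither gene was DE without NT replicate 1 or without DkkMo replicate 2, nor Nupr1 without DkkMo replicate 3. Without DkkMo replicate 2, 20 of 40 members were above 0 rather than 10. Under stress Cth was downregulated and none was upregulated, beside 1.54% and 1.12% of all genes, and the median was -0.09. By adjusted p alone 15 members were lower and 2 higher, beside 22.7% and 19% of all genes. The Cth call was lost without stressed DkkMo replicate 3 (-0.57).

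Genes of the pathway outside the members were read from further lists, to be set beside the shares of all genes that were upregulated and downregulated under stress: 8.22% and 9.90% in NT, 4.38% and 6.28% in scrMo, and 6.24% and 10.2% in DkkMo. The eIF2 kinases and the eIF2 machinery had 15 of 15 genes measured, of which 3 were upregulated and 1 downregulated under stress in NT, 1 and 1 in scrMo, and 1 and 2 in DkkMo. Impact, an inhibitor of the amino acid sensor GCN2, was upregulated in all 3 (0.77, 0.69 and 0.93). Eif2ak4, which encodes GCN2 itself, was upregulated in NT (0.62). Eif2b2, a subunit of the exchange factor of eIF2, was upregulated in NT (0.75), and Eif2ak2, the kinase that senses double-stranded RNA, was downregulated in NT (-1.14) and DkkMo (-0.98). Eif2b1, another subunit of the exchange factor, was downregulated in scrMo (-0.62) and DkkMo (-0.59). Of 25 other genes known to be regulated by ATF4, 23 were measured, and 5 were upregulated and 2 downregulated in NT, 6 and 3 in scrMo, and 7 and 3 in DkkMo. Slc36a1, a proton-coupled amino acid transporter, was upregulated in all 3 (0.90, 0.93 and 0.97). Vegfa, the angiogenic growth factor, was upregulated in scrMo (1.22) and DkkMo (0.62). Pck2, mitochondrial phosphoenolpyruvate carboxykinase, was downregulated in all 3 (-1.72, -1.52 and -1.75), as was Aldh1l2, a mitochondrial folate enzyme (-1.41, -0.82 and -1.07). Mthfd1l, a further folate enzyme, was downregulated in scrMo (-0.77) and DkkMo (-1.08). None of these 23 genes was DE between DkkMo and scrMo in log phase, beside 1.66% higher and 0.308% lower of all genes, and Vegfa was the single one under stress (-0.71), beside 0.489% lower. With scrMo against NT, 2 were upregulated in log phase and 5 under stress, beside 0.592% and 1.90% of all genes, and Gdf15, a stress cytokine, was among both (0.77 and 0.91).

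Among serine, glycine and folate enzymes outside the members (12 of 13 measured), 2 were upregulated and 1 downregulated under stress in NT, 0 and 3 in scrMo, and 1 and 3 in DkkMo. Tyms, which makes thymidylate, was downregulated in all 3 (-1.04, -0.89 and -1.36). Shmt1, the cytoplasmic partner of Shmt2, was upregulated in NT (0.69) and DkkMo (1.01), and was higher with DkkMo than with scrMo under stress (0.96). Among proline and glutamine enzymes (9 of 11 measured), 1 was upregulated and 2 downregulated in each treatment. The upregulated gene was Glul, glutamine synthetase, at 2.05 in NT, 0.62 in scrMo and 1.38 in DkkMo, and the downregulated genes were Glud1 and Got1. Of the other cytoplasmic tRNA synthetases (9 of 11 measured), none was upregulated by stress, and 1 was downregulated in NT, 2 in scrMo and 1 in DkkMo, with Lars, for leucine, among them each time (-0.84, -0.76 and -0.86).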

How the data were processed

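The 18 culture libraries of a mouse OS line were read from 1 table. The authors deposited log2 values: per their methods and the submitters' processing notes, reads were aligned to GRCm38 with HISAT2 2.1.0, handled with SAMtools, counted with featureCounts (Subread 2.0.0) and variance-stabilised with DESeq2. StringTie is also named. The strand setting and the rule that kept genes are not given in the sources used here. Tumour libraries were not used here. Reversing the transformation gave whole reads for at least 99.97% of values (within 0.01), which served as levels and in an alternative test. Of 16576 genes, 14 were set aside for values spanning over 6 log2 units within a group. The other 16562 were all above the lowest value of the table, 7.2, in at least 3 libraries, and were fitted with limma 3.58.1 (R 4.3.3) on all 6 groups, with no covariate, empirical Bayes moderation and Benjamini-Hochberg adjustment. The code was tested on simulated data. Alternatives were log2 (normalized count + 1), limma voom, centring, fewer groups or genes, a replicate block and replicates left out.

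The members and all lists were chosen with earlier results of these data known. Of the members, 16 were to be given in every culture (Ddit3, Asns, Chac1, Trib3, Atf3, Ppp1r15a, Psat1, Mthfd2, Aldh18a1, Cth, Slc7a11, Slc7a5, Slc1a5, Slc1a4, Slc38a2 and Slc3a2) and the rest by group. Genes of other lists were named for at most the 3 largest DE changes per comparison, and their smaller DE changes under stress are given beside them. Eif2ak4 in NT was named beyond this rule. Gene positions come from GENCODE M21 (GRCm38) and promoter windows from RefSeq (GRCm38.p6).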

Additional observations from a re-analysis of the deposited data

Results flagged for a closer look

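A difference between conditions in the effect of a treatment, tested as an interaction term in limma over all genes, was called for 11 results. For DkkMo against scrMo, the log2 fold change under stress minus that in log phase was 1.28 for Atf3, 0.98 for Slc7a11 and 0.70 for Chac1. For scrMo against NT it was 0.91 for Ddit3 and 0.70 for Slc1a4, and -1.02 for Atf3, -0.92 for Slc7a11, -0.90 for Chac1, -0.65 for Sars, -0.61 for Vldlr and -0.60 for Eif4ebp1. The log-phase scrMo libraries enter all 11, so that the 3 genes present in both sets are not counted independently. The value of Chac1 for DkkMo against scrMo was 0.57 and not called without log-phase DkkMo replicate 2. That of Vldlr was -0.57 and not called without log-phase scrMo replicate 3. The value of Eif4ebp1 was not called without log-phase NT replicate 2 (-0.58) or 3 (-0.56), without log-phase scrMo replicate 1 (-0.50), or without replicate 1 of every log-phase group (-0.56). The cause of these differences was not tested.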

How the results depend on the processing

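None of the 58 called results of single members reversed under any alternative. Medians and the balance of calls did change direction in places. Without log-phase DkkMo replicate 2 the median of DkkMo against NT in log phase went from -0.06 to 0.01. With centring, upregulated members outnumbered downregulated ones under stress in NT (7 and 6) and DkkMo (5 and 4), unlike in the main fit. Leaving out 1 replicate at a time gave 3 to 6 DE members for DkkMo against scrMo in log phase (3 with all libraries) and 2 to 5 for scrMo against NT in log phase (3 with all). It gave 1 to 4 for scrMo against NT under stress (2 with all), 0 to 2 for DkkMo against NT in log phase (2 with all) and 0 to 1 for DkkMo against NT under stress (1 with all). Leaving out replicate 1 of every log-phase group, chosen after seeing the data, gave 6 for DkkMo against scrMo and 6 for scrMo against NT in log phase. For scrMo against NT under stress the log2 (normalized count + 1) scale gave 4 and limma voom gave 4. Of all genes, 17.6% and 17.8% were then DE, against 4.43% in the main fit. In other comparisons the counts stayed within 1.5 times those with all libraries. Of 58 called results of single members, all kept the call on that scale, under voom, with the other groups left out of the fit, without genes below the median level and without a filter. Centring kept 50 and ended 8. Over the replicates left out, 389 calls were kept and 25 lost.

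Replicates with the same number deviated from their group means with correlations of 0.624, -0.049 and 0.57 between log-phase DkkMo and scrMo. With the other numbers the mean correlations were -0.437, 0.055 and -0.157. Between the same groups under stress the same-number values were -0.059, -0.025 and 0.005. Replicates 1 and 3 of DkkMo and scrMo thus moved together in log phase but not under stress. In log phase the same-number values were 0.024, -0.039 and 0.112 between scrMo and NT, and 0.141, 0.109 and -0.019 between DkkMo and NT. Between stress and log phase they were 0.35, 0.057 and 0.044 in DkkMo and 0.06, 0.01 and -0.05 in scrMo. Whether the numbers pair the cultures was not tested. With a replicate block 3 members were DE for DkkMo against scrMo in log phase, and all 36 calls that could be fitted were kept. The block could not be fitted with stressed NT, where 2 libraries carry the same number.

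Depth limits Cbs, with at most 11.6 normalized counts, and the deposited scale understates changes of Stc2 and Slc7a3.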

Other observations

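Of the arms of the unfolded protein response outside ATF4 (14 of 15 genes measured), 2 genes were upregulated by stress in NT, 5 in scrMo and 10 in DkkMo, beside 8.22%, 4.38% and 6.24% of all genes. No gene of this list was downregulated in the 3 treatments, with median log2 fold changes of 0.26, 0.51 and 0.74 against -0.01 over all genes. Dnajb9, a chaperone induced through IRE1 and XBP1, was upregulated in all 3, by 1.63, 1.43 and 2.00. Whether the number differed between treatments was not tested.

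The mitochondrial tRNA synthetases (15 of 16 measured) had 5 downregulated genes and 1 upregulated under stress in NT, none of either kind in scrMo (limma), and 1 of each in DkkMo, beside 9.90% lower and 8.22% higher of all genes in NT, 6.28% and 4.38% in scrMo, and 10.2% and 6.24% in DkkMo. At an adjusted p below 0.05 alone 1 gene was higher and 8 were lower in scrMo, beside 28% and 30.8% of all genes.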
